A study of Mus musculus with 8 samples.

Results

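The genes described here are 46 genes of the citrate cycle (TCA cycle), of pyruvate entry into it and of fatty acid oxidation, measured in gastrocnemius (GAS) muscle after knockdown of MYTHO. The 46 were listed by name. They comprised 18 genes listed under the citrate cycle and 6 genes of the pyruvate dehydrogenase complex and its kinases. The others were 8 genes that bring fatty acids to and into mitochondria, and 14 genes of beta-oxidation and the electron transfer flavoprotein. All 46 were found by gene symbol among the 22206 probe sets of the array. A probe set is a group of short probes that gives a gene-level signal, and 836 of the probe sets name more than 1 gene. *Mlycd* had several probe sets and was read from the one with the highest mean signal, and the *Etfb* probe set also names a microRNA.

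Both groups were GAS muscles of male C57/Bl6j mice, 14 weeks old per the labels, 3 weeks after a virus, AAV of serotype 1 (adeno-associated virus), had been injected into the muscle. The AAV sh-RNA MYTHO virus coded for a short hairpin RNA that targets the MYTHO transcript, and the AAV sh-RNA scrmb virus a scrambled hairpin, so every muscle had been injected and transduced with a hairpin virus. Per the study's design, one leg of a mouse received the MYTHO virus and the contralateral leg the scrambled one, and the table's columns carry 4 animal numbers, each found once per group. Arrays with the same number were taken as the 2 legs of one animal, which the labels do not state, and are called the scrmb and MYTHO legs of animals A to D. The hairpin was driven by a U6 promoter, which is not specific to a cell type, and RNA came from a piece of whole muscle, so fewer cells of a type and less RNA per cell cannot be told apart. All members are nuclear genes for proteins of mitochondria or of the path to them, and all signals below are on a log2 scale on which levels of different genes cannot be compared.

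In skeletal muscle, the citrate cycle oxidizes acetyl groups and hands their electrons to the respiratory chain. The acetyl groups come from pyruvate, through the pyruvate dehydrogenase complex, or from fatty acids, which are taken up, bound, activated to acyl-CoA, carried into mitochondria as carnitine esters and shortened by beta-oxidation. Slow, oxidative fibres hold more of these enzymes than fast, glycolytic fibres, and nuclear receptors of the PPAR and estrogen-related receptor families are known to act on many of the genes.

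The targeted transcript, D230025D16Rik, was measured first as a check on the labels. The scrmb legs ranged from 10.78 to 11.35 in log2 signal and the MYTHO legs from 8.08 to 8.80, without overlap. The limma adjusted p was 0.00044 for a log2 fold change of -2.81. As for the tissue, the fast fibre and skeletal muscle genes had mean log2 signals near the array's ceiling in both groups, 19.50 in scrmb and 19.49 in MYTHO. A set of 8 slow fibre markers stood apart in 2 arrays. Their mean log2 signal was 13.70, 11.91, 11.94 and 11.61 in scrmb and 14.88, 14.43, 14.81 and 11.68 in MYTHO, in the order of animals A to D, so that the scrmb leg of animal A was high and the MYTHO leg of animal D was low for its group. In every such list of 4 values below, the order is also A to D. Counts without these 2 arrays are given beside the main ones.

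Promoter windows, 250 bases before to 50 after a gene's start, were taken from RefSeq on GRCm38.p6, the same assembly as mm10, and were at hand for 40 of the 46 members. They were searched on both strands for TCAAGGTCA, the extended half-site of estrogen-related receptors, and for a direct repeat of AGGTCA with 1 base between the copies, the site of PPAR and RXR dimers. The extended half-site occurred in 1 of the 40 members, *Sdhd*, or 2.5%, against 0.387% of the 16277 genes of the array with a window. The direct repeat occurred in 0 of 40 members and in 0.0614% of all genes. The single AGGTCA half-site, which is contained in both motifs and was counted after these results, occurred in 11 of 40 members, or 27.5%, against 16.5% of all genes. Its share was 27.3% among the 22 citrate cycle and pyruvate members and 27.8% among the 18 lipid members, and 14.3% among the 7 members with both a window and an unadjusted p under 0.05. These matches describe letters only.

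Stretches of 30 bases around the matches are shown for 5 members whose values are given below. Each is written 5′ to 3′ on the strand of its gene, with the motif on either strand in capitals. The stretch of *Sdhd* (chr9:50603800-50603829, minus strand) begins after the start of the gene, and its capitals mark the extended half-site, which lies on the opposite strand. The others lie before the start that their window was built on, and their capitals mark a single half-site: *Sdhb* (chr4:140961173-140961202, plus strand), *Cd36* (chr5:17836107-17836136, minus strand), *Ucp3* (chr7:100472830-100472859, plus strand) and *Acadvl* (chr11:70015498-70015527, minus strand). The window of *Ucp3* holds 2 half-sites, 149 and 44 bases before the start, and the stretch shows the first. For *Cd36* that start is an internal one, since the annotated gene extends to 17888959.
Sdhd: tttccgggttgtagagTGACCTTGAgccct
Sdhb: ctcagactccagAGGTCAccttaggaacat
Cd36: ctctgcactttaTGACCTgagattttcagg
Ucp3: ttaaagagccccAGGTCAcggaagctaaac
Acadvl: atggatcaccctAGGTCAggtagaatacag

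*Dlst*, the one member with an unadjusted p under 0.05 in all 23 limma fits described below, held none of the 3 motifs. The 250 bases before the start of its window (chr12:85110583-85110832, plus strand) are shown in lower case, and the last of them lie inside the gene, whose annotated span begins at 85110822.
Dlst: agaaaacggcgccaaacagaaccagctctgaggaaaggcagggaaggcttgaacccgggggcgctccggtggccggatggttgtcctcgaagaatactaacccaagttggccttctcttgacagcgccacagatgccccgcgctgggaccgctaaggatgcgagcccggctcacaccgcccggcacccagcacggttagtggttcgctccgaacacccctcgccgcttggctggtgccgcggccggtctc

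As a group, the members tended to be higher in MYTHO muscle, most of all the genes of fatty acid entry, but no single member passed the adjusted test. Their mean difference between the legs was -0.24, 1.01, 0.68 and 0.09 in animals A to D, so the rise lay in animals B and C. The members were chosen with earlier results of these data known, so the list as a whole was not tested. The log2 fold change, MYTHO minus scrmb, was above 0 in 40 of 46 members, with a median of 0.35 against -0.005 over all probe sets. It was highest for *Lpl*, the lipase that frees fatty acids from blood lipoproteins, at 1.33, and lowest for *Sdha*, the flavoprotein of succinate dehydrogenase, at -0.27. At a limma unadjusted p under 0.05, 10 members were higher and 0 lower, where 4.81% of all probe sets were higher and 7.58% lower. At a limma adjusted p under 0.05, 0 of 46 members passed, against 0.027% of all probe sets, and the lowest adjusted p of a member was 0.213, for *Sdhc*. With animal as a block, 9 members were higher with an unadjusted p under 0.05, against 4.94% of all probe sets. *Idh2*, *Fabp3* and *Hadh* no longer passed, at 0.0562, 0.0628 and 0.0623, and *Cpt1b* and *Ucp3* did, at 0.042 and 0.0203. At the threshold of the study, which asks for a 2-fold difference beside that p, *Lpl* was higher and 0 members were lower, against 0.261% and 1.25% of all probe sets. Without the MYTHO leg of animal B, where the log2 fold change of *Lpl* was 0.996, or without both legs of animal B or C, 0 members passed that threshold.

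Counts that use the arrays without a model lay closer to the background. The groups did not overlap for 2 members, *Dlst* and *Acsl1*, both higher, and for 0 lower, where 2.59% of all probe sets were higher and 3.87% lower without overlap. In 7 members the MYTHO leg was higher in 4 of 4 animals and in 0 it was lower in all, against 8.94% and 10.8% of all probe sets. Without the scrmb leg of animal A and the MYTHO leg of animal D, 15 members had an unadjusted p under 0.05 and were higher, against 4.68% of all probe sets in that fit. In it, 6 members passed the study's threshold and 14 did not overlap, against 0.73% and 7.22%, and 0 passed the adjusted test. This exclusion was chosen after the data were seen and takes out a scrmb array that was high and a MYTHO array that was low for slow fibre markers. In the other direction, 5 members were higher with an unadjusted p under 0.05 without the scrmb leg of animal B, the scrmb leg of animal C or the MYTHO leg of animal B, where the shares of all probe sets were 3.73%, 3.68% and 3.45%. In each case they were *Dlst*, *Sdhc*, *Lpl*, *Cd36* and *Acsl1*, and *Idh2*, *Fabp3*, *Hadh*, *Acaa2* and *Eci1* did not pass.

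**Figure D1:**
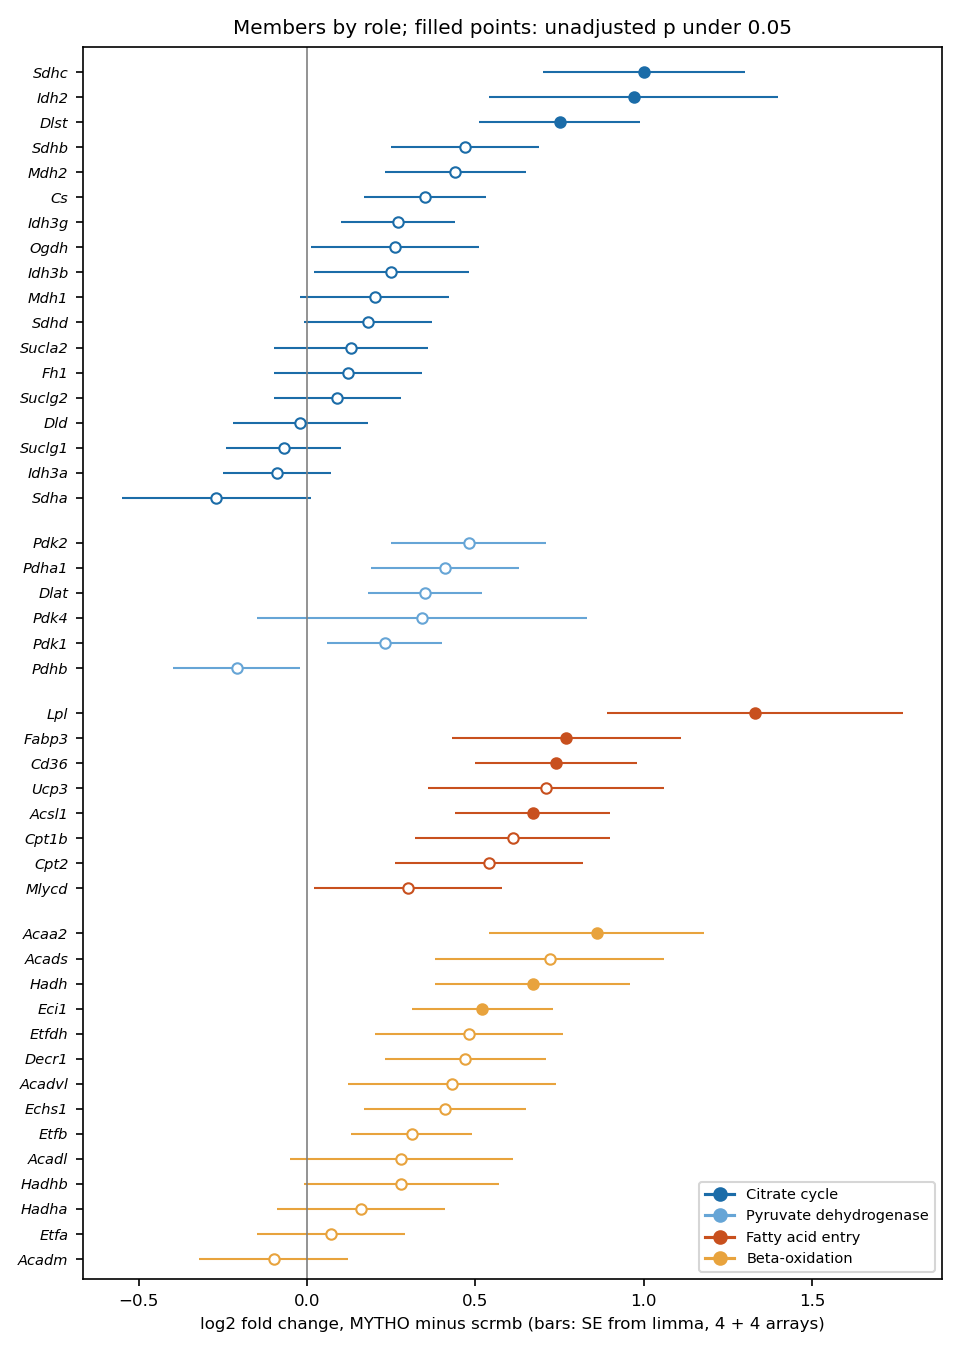
Log2 fold change (x axis, MYTHO minus scrmb, 4 arrays in each group) of the 46 members (y axis), grouped by role, with bars for the standard error from limma; filled points had an unadjusted p under 0.05. All 8 genes of fatty acid entry lie above 0, and *Sdha* is the lowest of the 46.

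Pyruvate enters the cycle through the pyruvate dehydrogenase complex. Of its 6 genes, 0 had an unadjusted p under 0.05 in the main fit or with animal as a block. The median log2 fold change was 0.34, with 5 of 6 above 0. Over the 23 limma fits described below, *Pdha1*, *Dlat* and *Pdk2* had an unadjusted p under 0.05 in 4 fits each and *Pdk4* in 1. *Pdha1*, the catalytic alpha subunit, had log2 signals of 13.34, 12.92, 12.73 and 12.99 in scrmb and 13.01, 13.90, 13.31 and 13.39 in MYTHO. It was higher in 3 animals and lower in animal A, and the log2 fold change was 0.41 ± 0.22 (SE), or 0.242 without the MYTHO leg of animal B. *Pdhb*, the beta subunit of the same enzyme, had 16.44, 16.23, 16.60 and 15.95 in scrmb and 16.04, 16.29, 16.01 and 16.05 in MYTHO. Here the log2 fold change was the lowest of the list, at -0.21 ± 0.19 (SE), and ran from -0.326 to -0.109 without single arrays, so the pair of subunits had opposite signs. *Dlat*, the acetyltransferase core, and *Pdk1*, a kinase, had log2 fold changes of 0.35 and 0.23.

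The pyruvate dehydrogenase kinases switch the complex off. *Pdk2* had log2 signals of 16.84, 16.79, 16.16 and 17.30 in scrmb and 17.17, 17.42, 17.20 and 17.20 in MYTHO, the highest log2 fold change of this list at 0.48 ± 0.23 (SE). The low scrmb leg was that of animal C, and the scrmb leg of animal D lay above 3 of the 4 MYTHO legs. Without the scrmb leg of animal C the log2 fold change was 0.27. *Pdk4*, the kinase raised by fasting and fat supply, had 14.87, 14.84, 13.93 and 13.78 in scrmb and 14.49, 16.11, 14.88 and 13.28 in MYTHO. Its legs differed by 1.27 in animal B and by -0.50 in animal D, and the log2 fold change of 0.34 ± 0.49 (SE) was smaller than its own error.

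In the citrate cycle list, 3 of 18 genes, *Idh2*, *Dlst* and *Sdhc*, had an unadjusted p under 0.05, all higher (2 in the block fit), against 4.81% of all probe sets. The median log2 fold change was 0.22. The list also counts *Idh2*, whose enzyme uses NADP, and the cytosolic *Mdh1*. *Cs*, citrate synthase, which makes citrate from acetyl-CoA and oxaloacetate, had log2 signals of 15.84, 15.85, 15.78 and 16.16 in scrmb and 16.14, 16.47, 16.34 and 16.08 in MYTHO. The scrmb leg of animal D reached into the MYTHO range, and the log2 fold change was 0.35 ± 0.18 (SE) with a limma unadjusted p of 0.071. *Idh2*, the mitochondrial NADP-dependent isocitrate dehydrogenase, had 15.17, 13.54, 13.58 and 13.92 in scrmb and 14.59, 15.98, 15.39 and 14.11 in MYTHO. Its log2 fold change was 0.97 ± 0.43 (SE), with a limma unadjusted p of 0.0443 and adjusted p of 0.389. The legs differed by 2.44 in animal B and 1.81 in animal C, against 0.19 in animal D and -0.58 in animal A. *Idh3a*, the catalytic subunit of the NAD-dependent enzyme that the cycle itself uses, had 17.70, 17.40, 17.52 and 17.49 in scrmb and 17.34, 17.48, 17.42 and 17.49 in MYTHO. All legs lay close together and the log2 fold change was -0.09 ± 0.16 (SE), while *Idh3b* and *Idh3g*, the regulatory subunits, had 0.25 and 0.27.

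The 2-oxoglutarate dehydrogenase complex has 3 components, and only its E2 core, *Dlst*, had an unadjusted p under 0.05. *Dlst* (chromosome 12, 85110822 to 85134091, GRCm38.p6) had log2 signals of 8.89, 8.84, 8.11 and 9.16 in scrmb and 9.47, 9.80, 9.51 and 9.20 in MYTHO. All MYTHO legs lay above all scrmb legs, by as little as 0.04 between the legs of animal D, and the group means were 8.75 ± 0.45 (SD, n = 4) for scrmb and 9.50 ± 0.25 (SD, n = 4) for MYTHO. This gave a log2 fold change of 0.75 ± 0.24 (SE), with a limma unadjusted p of 0.00869 and an adjusted p of 0.237. Its unadjusted p was under 0.05 in each of the 23 fits that were run. *Ogdh*, the E1 component that sets the rate, had 16.55, 16.17, 15.77 and 16.55 in scrmb and 16.11, 16.94, 16.79 and 16.26 in MYTHO. It was higher in animals B and C and lower in A and D, with a log2 fold change of 0.26 ± 0.25 (SE) that ran from 0.102 without the scrmb leg of animal C to 0.403 without the MYTHO leg of animal A. *Dld*, the E3 component shared with pyruvate dehydrogenase, had a log2 fold change of -0.02.

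Succinate dehydrogenase, which is also complex II of the respiratory chain, had subunits at both ends of the citrate cycle list. *Sdhc*, a membrane anchor (chromosome 1, 171129157 to 171150640, GRCm38.p6), had log2 signals of 13.37, 12.34, 12.12 and 12.90 in scrmb and 13.60, 14.14, 13.85 and 13.12 in MYTHO. It was higher in 4 of 4 animals, though the MYTHO leg of animal D lay below the scrmb leg of animal A, and the scrmb mean of 12.68 ± 0.56 (SD, n = 4) compared with 13.68 ± 0.43 (SD, n = 4) in MYTHO. This gave a log2 fold change of 1.00 ± 0.30 (SE), with a limma unadjusted p of 0.00562 and an adjusted p of 0.213. *Sdhb*, the iron-sulfur subunit, had 15.75, 15.20, 15.15 and 15.68 in scrmb and 15.62, 16.32, 16.01 and 15.72 in MYTHO. The log2 fold change was 0.47 ± 0.22 (SE), with a limma unadjusted p of 0.0529. *Sdha*, the catalytic flavoprotein, had 10.90, 10.89, 10.82 and 11.18 in scrmb and 9.97, 11.48, 10.51 and 10.73 in MYTHO. The MYTHO leg of animal B was the highest of the 8 and those of the other 3 animals lay below every scrmb leg. Its log2 fold change of -0.27 was -0.544 without the MYTHO leg of animal B, with a limma unadjusted p of 0.0329, and -0.0408 without that of animal A, where *Pdhb* at -0.188 was lower. *Sdhd*, the other anchor, had a log2 fold change of 0.18, within the spread of the legs.

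The remaining citrate cycle genes were the succinyl-CoA ligase subunits, fumarase and the malate dehydrogenases. *Sucla2*, *Suclg1* and *Suclg2* had log2 fold changes of 0.13, -0.07 and 0.09, and *Fh1* had 0.12. *Mdh2*, the mitochondrial malate dehydrogenase, was higher in 4 of 4 animals, its log2 fold change was 0.44 and the limma unadjusted p 0.0582, and the cytosolic *Mdh1* had 0.20.

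**Figure D2:**
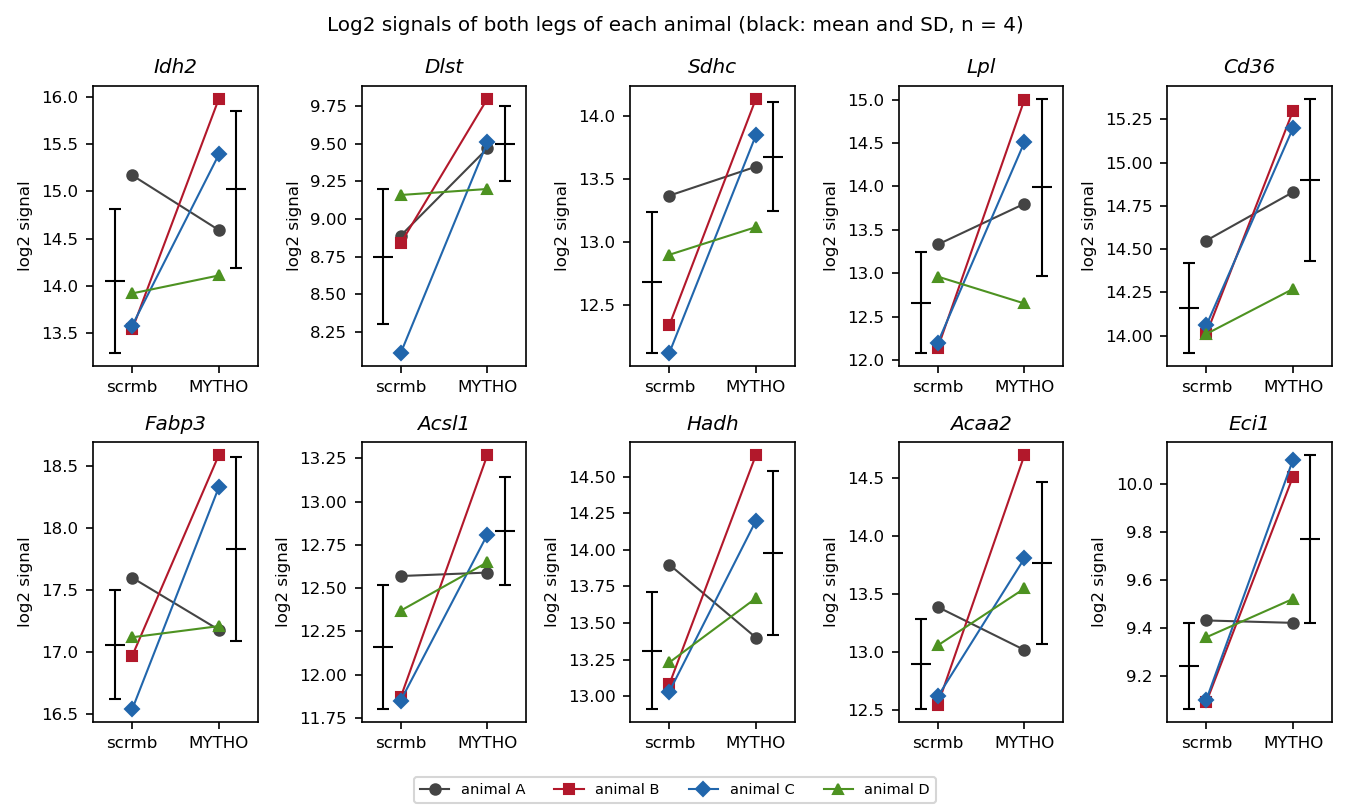
Log2 signal (y axis) in the scrmb and MYTHO leg (x axis) of each animal, joined by lines, for the 10 members with an unadjusted p under 0.05; black marks are the mean and SD of 4 arrays. The steep lines are those of animals B and C in each panel, while the lines of animals A and D are flatter or fall.

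Fatty acid entry had the highest median of the members' 4 lists. All 8 genes had a log2 fold change above 0, from 0.30 to 1.33 with a median of 0.69, and 4 had an unadjusted p under 0.05 (5 in the block fit), against 4.81% of all probe sets in that direction. *Lpl* (chromosome 8, 68880555 to 68906932, GRCm38.p6) had log2 signals of 13.33, 12.14, 12.20 and 12.96 in scrmb and 13.80, 15.00, 14.51 and 12.65 in MYTHO. The scrmb mean was 12.66 ± 0.58 (SD, n = 4) and the MYTHO mean 13.99 ± 1.02 (SD, n = 4), and animal D was lower in its MYTHO leg. The log2 fold change was 1.33 ± 0.44 (SE), a 2.52-fold difference, with a limma unadjusted p of 0.0112 and an adjusted p of 0.257. *Cd36*, the fatty acid transporter of the cell surface, had 14.55, 14.01, 14.06 and 14.01 in scrmb and 14.83, 15.30, 15.20 and 14.27 in MYTHO. It was higher in 4 of 4 animals, by 0.26 to 1.29, with a log2 fold change of 0.74 ± 0.24 (SE), a limma unadjusted p of 0.0103 and an adjusted p of 0.251.

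Inside the fibre, *Fabp3* binds fatty acids and *Acsl1* activates them. *Fabp3* had log2 signals of 17.60, 16.97, 16.54 and 17.12 in scrmb and 17.18, 18.59, 18.33 and 17.21 in MYTHO. The difference lay in animals B and C, at 1.62 and 1.79, while animal D differed by 0.09 and animal A by -0.42, and the limma unadjusted p was 0.0435. *Acsl1* (chromosome 8, 46471037 to 46536051, GRCm38.p6) had 12.57, 11.87, 11.85 and 12.37 in scrmb and 12.59, 13.27, 12.81 and 12.65 in MYTHO. The groups did not overlap, but the legs of animal A differed by only 0.02. The log2 fold change was 0.67 ± 0.23 (SE), with a limma unadjusted p of 0.0129 and an adjusted p of 0.266.

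Carnitine transfer carries the activated fatty acids into mitochondria. *Cpt1b*, the muscle form of the rate-setting transferase, had log2 signals of 13.91, 13.86, 12.99 and 14.34 in scrmb and 13.92, 14.84, 14.34 and 14.44 in MYTHO. It was higher in 4 of 4 animals, by 0.01 to 1.35, and the log2 fold change of 0.61 ± 0.29 (SE) had a limma unadjusted p of 0.0545. It was 0.35 without the scrmb leg of animal C. *Cpt2*, the inner membrane transferase, had a log2 fold change of 0.54, with the MYTHO leg of animal B at 10.46 and those of A, C and D at 9.33, 9.38 and 9.20. *Mlycd*, malonyl-CoA decarboxylase, which removes malonyl-CoA, the inhibitor of that transferase, had 8.23, 7.11, 7.34 and 7.94 in scrmb and 7.61, 8.49, 7.77 and 7.94 in MYTHO. Its log2 fold change of 0.30 ± 0.28 (SE) was the lowest of this list and ran from 0.116 to 0.489 without single arrays, and its second probe set gave -0.01. *Ucp3*, a mitochondrial carrier that follows fatty acid supply, had 11.09, 11.36, 10.37 and 11.06 in scrmb and 11.21, 12.87, 11.29 and 11.35 in MYTHO. The MYTHO leg of animal B stood far above the rest, and the log2 fold change was 0.71 ± 0.35 (SE), or 0.31 without that leg.

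In beta-oxidation, 3 of 14 genes had an unadjusted p under 0.05, all higher, against 4.81% of all probe sets, and the median log2 fold change was 0.42. In the block fit 2 did, and *Hadh* was at 0.0623. *Acadvl*, the very-long-chain acyl-CoA dehydrogenase of the first step, had log2 signals of 12.67, 11.97, 11.58 and 12.43 in scrmb and 11.94, 13.22, 12.90 and 12.29 in MYTHO. It was higher in animals B and C and lower in A and D, with a log2 fold change of 0.43 ± 0.31 (SE) that ran from 0.214 to 0.641 without single arrays. *Acadm*, the medium-chain enzyme, had 12.40, 12.23, 12.22 and 11.90 in scrmb and 11.96, 12.60, 11.72 and 12.09 in MYTHO. With -0.10 ± 0.22 (SE), it had the one log2 fold change below 0 among the 22 lipid genes. *Acads*, the short-chain enzyme, had a log2 fold change of 0.72 ± 0.34 (SE) and a limma unadjusted p of 0.0556. Its scrmb leg of animal C was low, at 8.45 against 9.89, 9.50 and 9.88 in A, B and D. *Acadl*, the long-chain enzyme, had a log2 fold change of 0.28.

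The later steps held the genes with an unadjusted p under 0.05. *Hadh*, which oxidizes hydroxyacyl-CoA of short and medium chains, had log2 signals of 13.90, 13.08, 13.03 and 13.23 in scrmb and 13.40, 14.65, 14.20 and 13.67 in MYTHO. *Acaa2*, the thiolase of the last step, had 13.39, 12.55, 12.62 and 13.06 in scrmb and 13.02, 14.70, 13.81 and 13.55 in MYTHO. *Eci1*, an isomerase for unsaturated fatty acids, had 9.43, 9.09, 9.10 and 9.36 in scrmb and 9.42, 10.03, 10.10 and 9.52 in MYTHO. In all of them the MYTHO leg was higher in animals B, C and D and lower in animal A. Their log2 fold changes were 0.67 ± 0.29 (SE) for *Hadh*, 0.86 ± 0.32 (SE) for *Acaa2*, the highest of the list, and 0.52 ± 0.21 (SE) for *Eci1*. The limma unadjusted p was 0.0385 for *Hadh*, 0.0206 for *Acaa2* and 0.0263 for *Eci1*, and the adjusted p was 0.372, 0.308 and 0.332. Without the MYTHO leg of animal B, *Acaa2* had a log2 fold change of 0.555 and an unadjusted p of 0.0633, and without the scrmb leg of animal B or C its unadjusted p was 0.0593 or 0.0553.

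The trifunctional protein joins the later steps for long chains, and neither of its subunits had an unadjusted p under 0.05. *Hadha* had log2 signals of 15.28, 14.73, 14.68 and 14.98 in scrmb and 14.57, 15.69, 15.22 and 14.81 in MYTHO, and *Hadhb* had a log2 fold change of 0.28 ± 0.29 (SE). The legs of *Hadha* differed by -0.71 in animal A and 0.96 in animal B, and the log2 fold change was 0.16 ± 0.25 (SE). *Etfdh*, which passes electrons from the flavoprotein to ubiquinone, had 14.10, 13.47, 13.65 and 13.75 in scrmb and 13.76, 14.83, 14.63 and 13.65 in MYTHO, with a log2 fold change of 0.48 ± 0.28 (SE), or 0.271 without the MYTHO leg of animal B. *Echs1*, *Decr1*, *Etfa* and *Etfb* had log2 fold changes of 0.41, 0.47, 0.07 and 0.31.

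Set side by side, the lipid genes had larger differences than the citrate cycle and pyruvate genes, in a description with no test since the lists were chosen with earlier results known. The median log2 fold change was 0.50 for the 22 lipid genes and 0.26 for the 24 citrate cycle and pyruvate genes. An unadjusted p under 0.05, in the higher direction, was reached by 7 of 22 and by 3 of 24, with 0 lower in both, where 4.81% of all probe sets were higher and 7.58% lower. In the block fit the numbers were 7 and 2. Both lists moved in the same animals. The mean difference of the lipid genes was -0.31, 1.30, 0.93 and 0.12 in animals A to D, and that of the citrate cycle and pyruvate genes was -0.18, 0.74, 0.46 and 0.07.

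The members' differences were uneven over the animals. The MYTHO leg was the higher one for 12 of 46 members in animal A, 46 in animal B, 38 in animal C and 29 in animal D, where the shares of all probe sets were 48.3%, 50.5%, 47.0% and 48.3%. The MYTHO leg of animal B held the highest signal of the 8 arrays for 36 of 46 members, and for 17.2% of all probe sets. At the other end, the scrmb legs of animals C and B held the lowest signal for 19 and 15 members, and for 14.6% and 11.4% of all probe sets. Without both legs of animal B, 1 member was higher with an unadjusted p under 0.05, *Dlst*, and 1 was lower, *Sdha*, against 2.7% and 5.21% of all probe sets. Without both legs of animal C, 2 were higher, *Dlst* and *Sdhc*, against 3.23%. These counts are near the background, while without both legs of animal A, 22 were higher, against 4.26%. MYTHO itself was lower in the MYTHO leg of all 4 animals, with log2 differences of -3.19, -3.11, -1.98 and -2.97 in A to D.

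**Figure D3:**
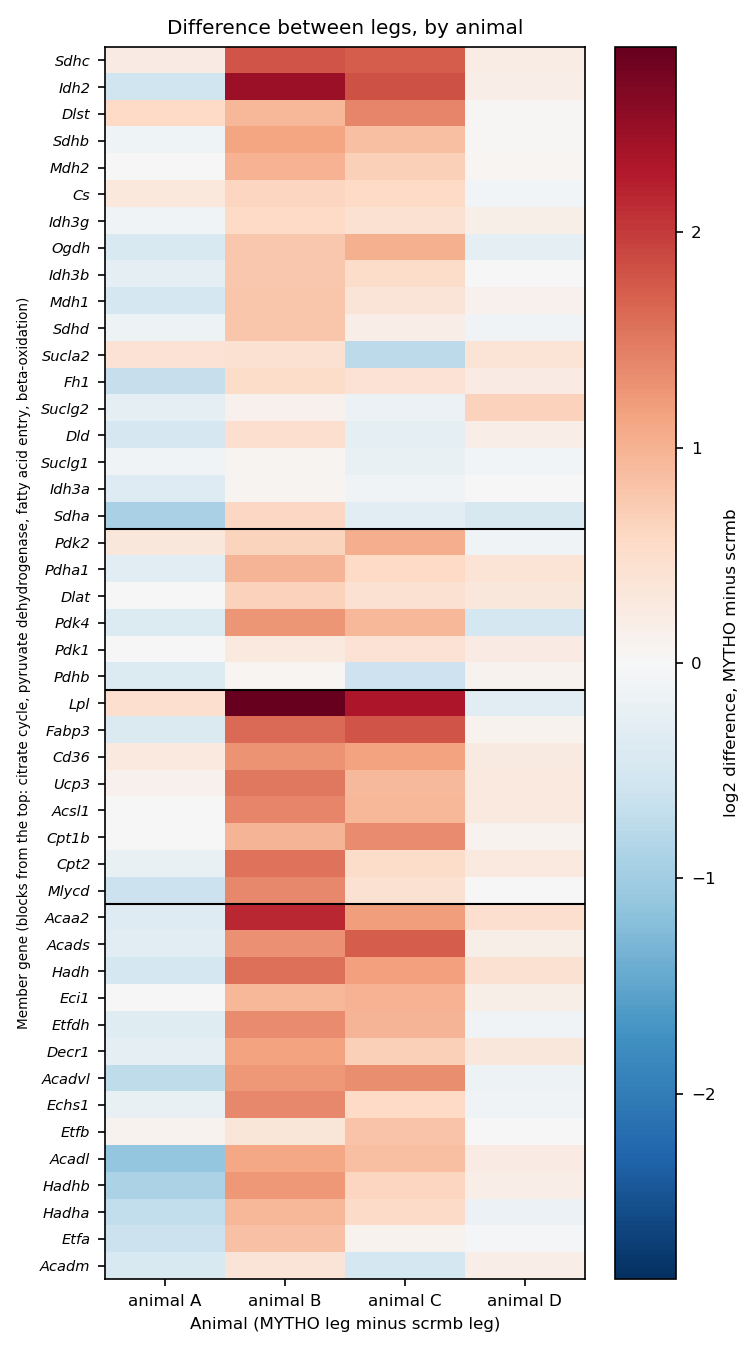
Difference in log2 signal between the MYTHO and scrmb leg (colour, red for higher in MYTHO) of each animal (columns) for the 46 members (rows, in blocks by role). All 46 rows are red in animal B, 38 in animal C, 29 in animal D and 12 in animal A.

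Markers of fibre type and of other cells in the muscle piece were read beside the members. All 8 slow fibre markers had a log2 fold change above 0, with a median of 1.59. Of them 7 had an unadjusted p under 0.05 (8 with animal as a block), against 4.81% (4.94%) of all probe sets in that direction. But 0 were without overlap, against 2.59%. Their mean differed by 1.18, 2.52, 2.87 and 0.08 between the legs of animals A to D, so that animals B and C led here as they did for the members, while animal A was higher for slow fibre markers and lower for the members. The part of fibre type in the members' differences was not tested. *Myh7*, the slow myosin, had log2 signals of 13.75, 11.53, 11.89 and 11.68 in scrmb and 15.13, 14.68, 14.74 and 11.58 in MYTHO.

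Endothelial markers, 6 genes of blood vessel lining, which also hold LPL and CD36 protein, had a median log2 fold change of 0.42. Of the 6, 2 were higher with an unadjusted p under 0.05 and 3 were higher without overlap, against 4.81% and 2.59% of all probe sets. The mean ranged from 9.77 to 10.29 in scrmb and from 10.44 to 10.60 in MYTHO. *Tek* had the highest log2 fold change of the list, 0.86, and *Pecam1* had 0.45. For 7 adipocyte markers, a cell type that also expresses *Lpl* and *Cd36*, the median log2 fold change was -0.17 and 0 had an unadjusted p under 0.05. The adipocyte mean was 8.64, 9.46, 10.08 and 6.73 in scrmb and 11.42, 7.01, 8.91 and 7.28 in MYTHO. The adipocyte mean and *Lpl* were both higher in the MYTHO leg of animal A, while in the other 3 animals their differences had opposite signs. *Cd36* differed by 0.28, 1.29, 1.14 and 0.26 in animals A to D, with the sign of the adipocyte mean in A and D and the opposite sign in B and C. Macrophage and red blood cell markers, 5 and 4 genes, had medians of 0.12 and 0.30, and 0 had an unadjusted p under 0.05. With animal as a block 1 macrophage marker did, *Cd68*, higher with a limma unadjusted p of 0.0332, against 4.94% of all probe sets. The part of endothelial cells and of adipocytes in the values of *Lpl* and *Cd36* was not tested.

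**Figure D4:**
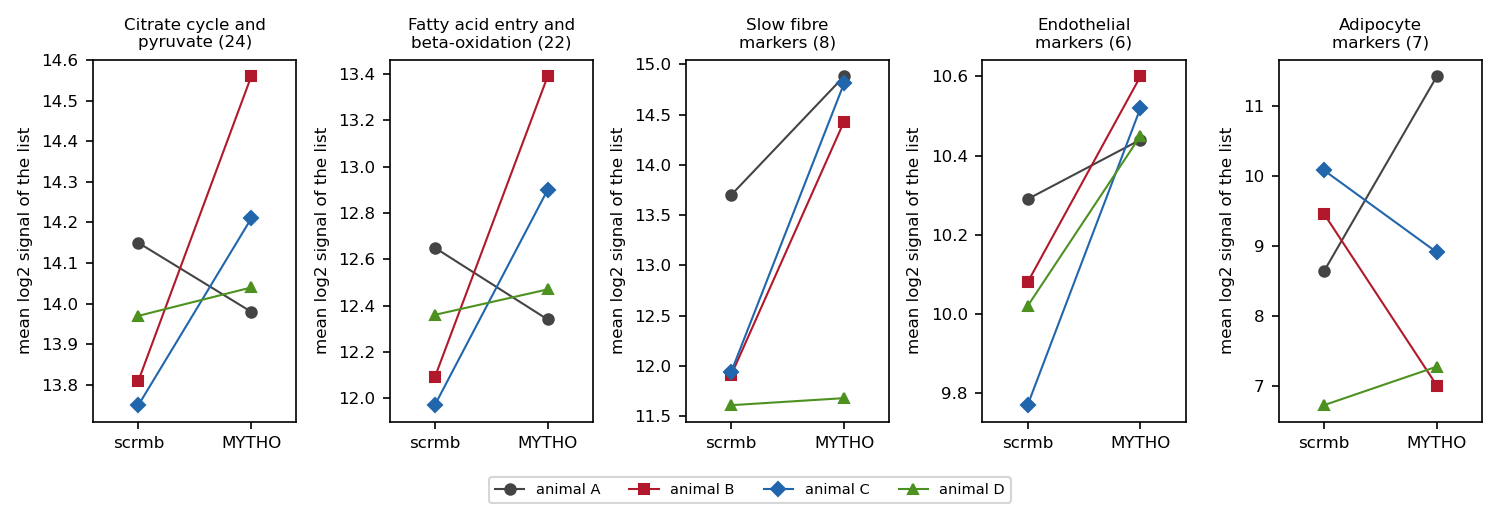
Mean log2 signal of a list (y axis, a separate scale in each panel) in the scrmb and MYTHO leg (x axis) of each animal, for both lists of members and for slow fibre, endothelial and adipocyte markers; the number of genes is in the panel titles. Animals B and C rise steeply for the members and the slow fibre markers, animal A falls for the members, and adipocyte markers run the other way in animals B and C.

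Other genes of the same pathways, listed apart from the members, had lower medians than both groups of members. The lists were chosen with earlier results of these data known, which may itself set members and other genes apart, and the contrast was not tested. The members' citrate cycle list alone had a median log2 fold change of 0.22. Of 20 further genes of pyruvate entry and the citrate cycle, 1 was higher with an unadjusted p under 0.05 and 0 lower. The shares of all probe sets were 4.81% and 7.58%, and the median log2 fold change of the 20 was 0.18. The highest was *Got1*, an aspartate aminotransferase, at 0.74 with a limma unadjusted p of 0.0327, and the lowest was *Mpc2*, of the mitochondrial pyruvate carrier, at -0.32. With animal as a block 0 of the 20 had an unadjusted p under 0.05, and that of *Got1* was 0.0607. Of 40 further genes of fatty acid uptake, storage and oxidation, 6 were higher and 0 lower, against 4.81% and 7.58% of all probe sets. In the block fit 7 were higher and 0 lower, against 4.94% and 7.66%. The median log2 fold change of the 40 was 0.21. The highest was *Lipe*, hormone-sensitive lipase, at 0.98, and the lowest was *Acad9*, an assembly factor of complex I, at -0.41. *Lipe* had log2 signals of 7.54, 8.01, 8.25 and 7.31 in scrmb and 10.17, 8.59, 8.66 and 7.62 in MYTHO, with the highest value in the MYTHO leg of animal A, which was also the highest for adipocyte markers.

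Nuclear subunits of the respiratory chain make up the lists most like the members. In complex I, 8 of 36 genes were higher with an unadjusted p under 0.05 and 0 lower, against 4.81% and 7.58% of all probe sets. Among the members it was 10 of 46 and 0. The median log2 fold change of complex I was 0.21, from -0.21 for *Ndufs4* to 0.90 for *Ndufv3*. In complexes III to V, 8 of 31 were higher and 1 lower, with a median of 0.30. *Cox6a2*, the muscle form of a cytochrome c oxidase subunit, had 17.57, 17.08, 16.56 and 17.57 in scrmb and 18.22, 18.63, 18.45 and 17.87 in MYTHO. It was the highest of the list at 1.10 ± 0.26 (SE), with no overlap and a limma adjusted p of 0.13. *Uqcrb*, of complex III, was the lowest at -0.41. With animal as a block, 5 genes of complex I and 6 of complexes III to V were higher with an unadjusted p under 0.05. In that fit 0 were lower, against 4.94% higher and 7.66% lower of all probe sets, and the limma unadjusted p of *Uqcrb* was 0.0572. The groups did not overlap for 4 genes of complex I, all higher. In complexes III to V this held for 2 higher and 1 lower, against 2.59% and 3.87% of all probe sets. The mean difference of complexes III to V was -0.07, 0.76, 0.59 and 0.13 in animals A to D, the same order of animals as for the members.

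**Figure D5:**
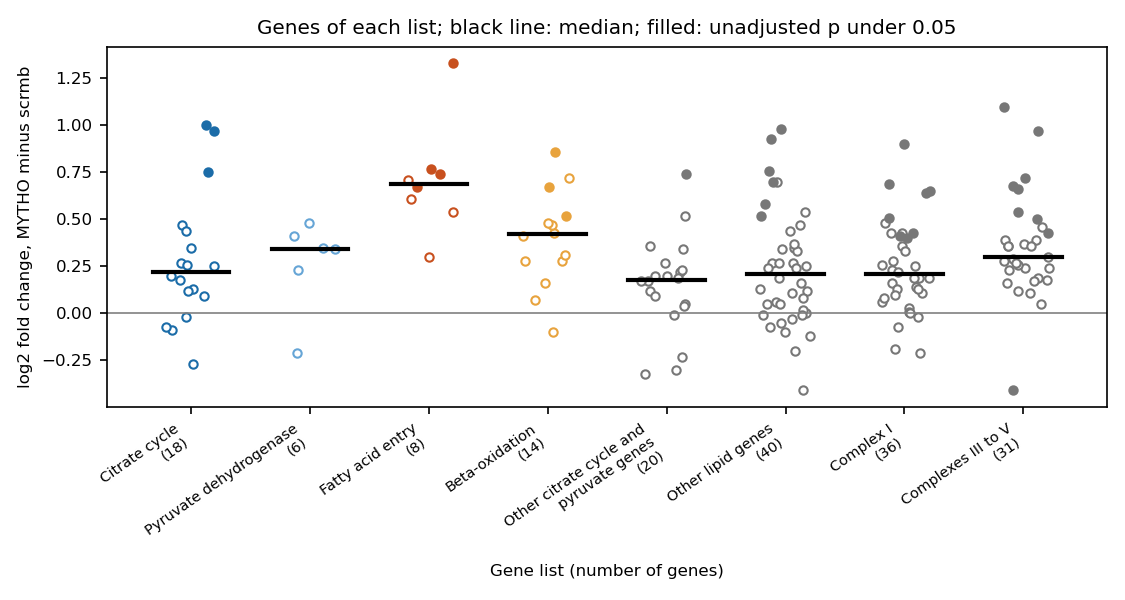
Log2 fold change (y axis, MYTHO minus scrmb) of each gene (points, filled for an unadjusted p under 0.05) in the members' 4 lists, in colour, and in 4 lists of related genes, in grey, with the median as a black line. Fatty acid entry has the highest median, 0.69, and the other citrate cycle and pyruvate genes the lowest, 0.18.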

How the data were processed

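Microarrays (Clariom S Mouse) of 8 GAS samples, 4 in each group by the labels' titles, were used. The authors deposited log2 signals, computed per the file headers by SST-RMA at gene level in the Transcriptome Analysis Console 4.0.1 with annotation release 36 on mm10, rounded to 2 decimals. Quantile normalization in that method puts all arrays on one scale, and brightness is capped at 19.93, where 18 probe sets lay on all arrays. No member reached it. The authors' group averages, fold changes, p-values and false discovery rates in the same table were not used.

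Groups were compared with limma 3.58.1 in R 4.3.3 (lmFit and eBayes, default settings, two-sided, no block, since the study's methods name an eBayes ANOVA and no pairing term) over all 22206 probe sets, with Benjamini-Hochberg adjustment. The script was tested on simulated data. For genes with several probe sets, the one with the highest mean signal was kept. The members and lists were chosen with earlier results of these data known. Each member with an unadjusted p under 0.05 and 18 regulated or rate-setting members were given in every array, and of the members' lists and the other pathway and respiratory chain lists the highest and lowest log2 fold change. Marker lists were given by counts, medians and means. Other genes named for a contrast with these were chosen after their values were seen. Same-numbered columns were taken as both legs of one animal from the study's contralateral design, which the labels do not state. Across probe sets, deviations from the group means correlated between same-animal legs at -0.00145 to 0.135, and between legs of different animals at -0.167 to 0.104, so the pairing rests on the design and is hardly visible in the signals. No column could be matched to a replicate number of the labels, and the animal was used in its place. Animals differ, and legs of one animal share it, so the unblocked p-values measure the spread between arrays. Precision is limited by the 4 arrays per group.

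Alternatives were animal as a fixed or random block, quantile normalization, median centring, keeping the brightest 75% or 50% of probe sets, trend and robust in eBayes, no saturated probe sets, arrayWeights, the other probe set of a member, a minimum fold of 1.5, a limit of 0.1 on the adjusted p, and leaving out each array or animal. Leaving out the scrmb leg of animal A with the MYTHO leg of animal D was added after the data were seen. Gene coordinates and promoter windows were from RefSeq on GRCm38.p6.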

Additional observations from a re-analysis of the deposited data

Results flagged for a closer look

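Of 66 groups of 4 values, 6 had one array far from the others by Dixon's gap ratio, the gap to the nearest value over the group's range, and chance gives about 1 in 20. The MYTHO leg of animal B was high for *Pdhb* (gap ratio 0.857, 16.29 against 16.05 for the next), *Pdk2* (0.88, 17.42 against 17.20) and *Ucp3* (0.916, 12.87 against 11.35). The scrmb leg of animal A was high for *Cd36* (0.907, 14.55 against 14.06) and for the mean of the slow fibre markers (0.842, 13.70 against 11.94). The MYTHO leg of animal D was low for the mean of the slow fibre markers (0.859, 11.68 against 14.43).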

How the results depend on the processing

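No member reached a limma adjusted p under 0.05 in any of the 23 fits, nor under 0.1 in the main fit. The smallest adjusted p of a member was 0.086, for *Lpl* without both legs of animal D. With trend and robust in eBayes, *Sdhc* had a limma adjusted p of 0.0994. With animal as a replicate block, 9 members were higher with an unadjusted p under 0.05 (12 with a random replicate block), against 4.94% (5.3%) of all probe sets. The lowest adjusted p of a member in the fixed block fit was 0.252. No count moved by more than 1.5 times, though 3 members lost and 2 gained that unadjusted p under the fixed block. The number higher with an unadjusted p under 0.05 was 16 with median centring and 18 with trend and robust, where 6.09% and 4.96% of all probe sets were. Leaving out single arrays, it ran from 5 to 18, against 3.45% to 5.65% of all probe sets. It was 5 without the scrmb leg of animal B or C or the MYTHO leg of animal B, against 3.73%, 3.68% and 3.45%. It was 6 without the MYTHO leg of animal C and 18 without the MYTHO leg of animal A, against 4.72% and 4.44%. The number lower ran from 0 to 1, against 5.82% to 8.74% of all probe sets. Without both legs of animals A, B, C and D, 22, 1, 2 and 14 members were higher, against 4.26%, 2.7%, 3.23% and 5.41% of all probe sets. Without animal B 1 member was lower, against 5.21%.

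Members higher at the study's threshold numbered 2 with quantile normalization or array weights, 3 with median centring and 9 at a fold minimum of 1.5, against 0.302%, 0.284%, 0.356% and 2.46% of all probe sets. They ran from 0 to 4 without single arrays (0.153% to 0.491% of all), and were 7, 0, 0 and 3 without animals A to D, against 0.594%, 0.171%, 0.221% and 0.653%. Members without overlap ran from 2 to 12 higher and 0 to 1 lower without single arrays (3.58% to 5.64% and 5.01% to 7.84% of all), and were 21 higher without animal A, 10 higher without animal D and 1 lower without animal B, against 6.87%, 8.25% and 7.36%. Without the scrmb leg of animal A and the MYTHO leg of animal D, 6 passed the study's threshold and 14 did not overlap. The median log2 fold change kept its sign throughout, from 0.0867 to 0.408 for citrate cycle and pyruvate genes and from 0.27 to 0.765 for lipid genes, and from 0.128 to 0.351 and from 0.301 to 0.64 without single arrays.

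Of 573 values of named genes, 8 changed sign. *Pdk4* was at -0.138 without the MYTHO leg of animal B, and up to 0.805 without other single arrays. *Hadha* was at -0.0508 without that leg, up to 0.322 without others, and -0.113 without animal B. *Acadm* was at 0.0292 without the MYTHO leg of animal C, down to -0.264 without others, 0.02 without animal A and 0.04 without animal C. *Mlycd* was at -0.0633 without animal B and -0.0125 on its second probe set. The causes were not tested. With 4 arrays per group, differences of the size seen for most members lie within the spread between arrays.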
